A study of Arabidopsis thaliana with 134 samples.

Results

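The lower arm of chromosome 5 was followed here through AT5G56670, a gene for ribosomal protein S30 (eS30, a component of the small cytosolic ribosomal subunit) that was listed at 0 TPM in one parent of a cross and abundant in the other. It lies at chr5:22935211-22936084 (TAIR10.1). TPM is a share of a library scaled for transcript length and depth. The lines were chosen by the measured level of this gene. For each of 65 recombinant inbred lines (RILs) of Arabidopsis thaliana, the mean of log2(TPM + 1) of AT5G56670 over its dark and its light library was set against the midpoint of 4.20 between the parents, whose means were 0 in Tnz-1 and 8.41 in Ws-2. A line below the midpoint was called Tnz-1-like and a line above it Ws-2-like. This gave 15 Tnz-1-like lines with 30 libraries and 50 Ws-2-like lines with 100 libraries. Together they make up 130 of the 134 libraries of the series, the other 4 being 1 library per parent and condition. In all 65 lines both libraries fell on the same side, so 0 lines were left out.

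The series measured RNA of whole seedlings of the 2 parental accessions and of the RILs made from them, at zeitgeber time (ZT) 10 h, which is 10 h after lights-on. After 4 days of stratification, seedlings grew for 12 days on MS medium with 3% sucrose at 22 °C under short days, with 8 h of light followed by 16 h of darkness, in clusters of about 50 seeds, so a library is a pool of seedlings of 1 line. The dark groups (RIL, Tnz-1, Ws-2) were harvested 2 h after lights-off, and the light groups of the same genotypes after 2 h of extended light. The light-treated plants stood in a cabinet of their own, so light and cabinet cannot be told apart in any light change below. The labels give a RIL only as the letters WT and a number, read here as the line; no transgene or mutation is named.

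A RIL is an inbred descendant of a cross in which each stretch of chromosome comes from one parent or the other. Neighbouring genes are inherited together, so the level of a gene with a strong parental difference tags the parental origin of its surroundings. A difference between lines at a gene inside that stretch can come from the gene's own sequence (a difference in cis). A difference at a distant gene can come, among other sources, from a diffusible product (in trans) or from a second stretch that happens to travel with the first in these lines. Lower chromosome 5 of Arabidopsis holds several genes of light sensing, the circadian clock and flowering time, among them ZTL, PHOT2, TOC1, UVR8 and the MAF cluster.

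The Arabidopsis genome has 3 genes for eS30. Their coding sequences are shown because within them the reads of 1 copy can be told from those of the others by positions that leave the protein the same. Each has 189 bases and encodes 62 residues, with 0 residue differences, in the RefSeq annotation of TAIR10.1. Capitals mark the 37 positions at which the 3 copies differ.
AT5G56670 (chromosome 5, minus strand): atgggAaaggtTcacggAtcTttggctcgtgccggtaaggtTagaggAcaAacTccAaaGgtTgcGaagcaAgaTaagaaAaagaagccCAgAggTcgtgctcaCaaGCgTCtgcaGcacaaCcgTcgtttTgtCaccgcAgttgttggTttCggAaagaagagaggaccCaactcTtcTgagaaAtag
AT2G19750 (chromosome 2, plus strand): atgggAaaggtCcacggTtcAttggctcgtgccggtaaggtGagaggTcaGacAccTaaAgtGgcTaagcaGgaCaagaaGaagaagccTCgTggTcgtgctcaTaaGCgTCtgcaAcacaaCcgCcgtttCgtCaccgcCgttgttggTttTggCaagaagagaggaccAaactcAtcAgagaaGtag
AT4G29390 (chromosome 4, minus strand): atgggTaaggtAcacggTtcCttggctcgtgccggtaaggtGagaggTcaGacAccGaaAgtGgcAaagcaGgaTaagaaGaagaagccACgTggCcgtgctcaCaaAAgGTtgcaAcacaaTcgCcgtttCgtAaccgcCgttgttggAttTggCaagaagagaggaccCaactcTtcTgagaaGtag
AT5G56670 differs from AT2G19750 at 28 positions (85.2% identity) and from AT4G29390 at 32 positions (83.1% identity), while AT2G19750 and AT4G29390 differ from each other at 19.

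The tag itself is given as a description, since its values chose the lines. In the Tnz-1-like lines it had a lowest, median and highest level of 0, 0 and 3.84 TPM in the dark, with 12 of 15 lines listed at 0, and of 0, 0 and 1.72 TPM in the light, with 13 of 15 at 0. In the Ws-2-like lines the same values were 34.4, 249.6 and 586.3 TPM in the dark and 26.1, 321.6 and 507.1 TPM in the light. Nearest to the midpoint were line 58 on the Tnz-1-like side, at a mean log2(TPM + 1) of 1.14, and line 2 on the Ws-2-like side, at 5.23.

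**Figure D1:**
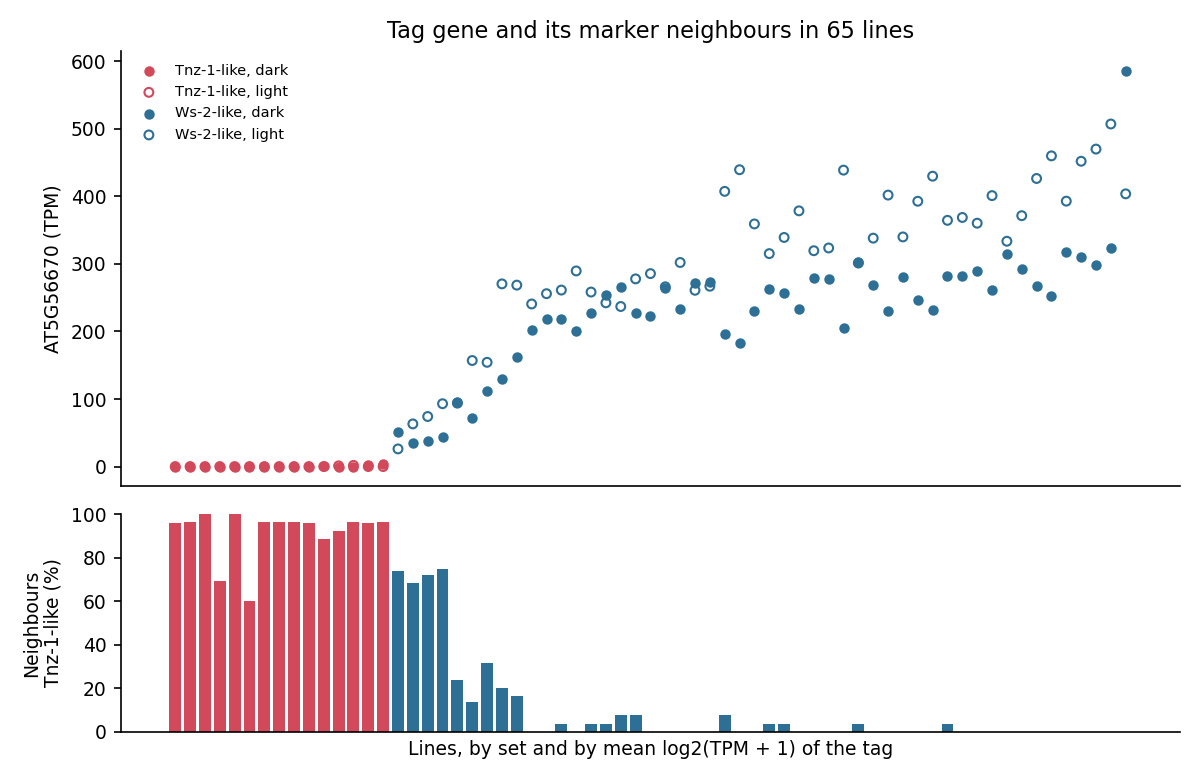
Upper panel, level of AT5G56670 in TPM in the dark (filled) and light (open) library of each of 65 lines, ordered by set and by the mean log2(TPM + 1) of the tag; lower panel, percent of neighbouring marker genes called Tnz-1-like in the same line. The 15 Tnz-1-like lines lie at 3.84 TPM or below, and the first 4 Ws-2-like lines have neighbour shares of 68.2% to 75%.

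The neighbours of the tag mostly, but not always, carried the same parental state. Parental marker genes were those with a parental difference of at least 2 on the log2(TPM + 1) scale, in the same direction in both conditions. They also had a mean of at least 1 TPM over the RIL libraries. Their dark and light calls fell on different sides of the parental midpoint in at most 10% of lines. There were 1551 such genes, of which 26 other than the tag lay within 1 Mb of it. In the Tnz-1-like lines the share of these neighbours called Tnz-1-like had a lowest, median and highest value of 60.0%, 96.2% and 100%. In 44 Ws-2-like lines the same share ran from 0 to 31.8% with a median of 0. The remaining 6 Ws-2-like lines (2, 31, 47, 64, 16 and 24), which had a tag mean below 7, stood between the sets. Their tag level was 13% to 38.4% of the median of the Ws-2-like lines, their neighbour share ran from 13.6% to 75%, and the median of the 19 neighbours that are high in Ws-2 stood at 22.1% to 58.2% of the level in the Ws-2 parent. In 4 of them (2, 31, 47 and 64) the majority of neighbours was Tnz-1-like, against the call at the tag. These lines are kept in the Ws-2-like set by the rule, and counts without these 6 lines, an alternative added after seeing the data, are given beside the main counts. Those counts still hold lines 25, 65 and 28, which had a tag mean above 7 but were also partly mixed. Their tag level was 44.7%, 66.9% and 72.2% of the Ws-2-like median. The median of their neighbours high in Ws-2 stood at 49.3%, 64.8% and 58.7% of the level in the Ws-2 parent.

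The sets also differed outside chromosome 5. Over the marker genes of chromosomes 1 to 4, the Tnz-1-like calls made up 35.2% ± 12.5 (SD, n = 15 lines) in the Tnz-1-like set and 21.6% ± 13.2 (SD, n = 50 lines) in the Ws-2-like set. Of 4 ranges of line numbers, the first (1 to 19) held 1 Tnz-1-like and 16 Ws-2-like lines, and the other three held 4 and 12, 5 and 11, and 5 and 11. There were 10 pairs of lines with at least 97% equal marker calls outside 5 Mb of the tag, among them lines 48 and 58 of the Tnz-1-like set with 100% equal calls, and such lines are not independent. Lines 2 and 64 form another such pair. Read depth is unknown for TPM; the number of genes listed at 0, out of 28775, had medians of 8624 and 8687 in the dark and 8722 and 8448 in the light in the Tnz-1-like and the Ws-2-like set.

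The first comparison asked which genes differed in level between the sets. Lower chromosome 5 carried most of the large differences: histone genes, the blue-light receptor PHOT2, the protease ALP and the membrane-anchored LLG1 were far lower in Tnz-1-like lines, while the chaperone HSP81-2 and the thiamine biosynthesis enzyme THI1 were far higher. Genes with a mean of at least 1 TPM were tested with limma on log2(TPM + 1), each condition by itself with the lines as replicates, and called at a Benjamini-Hochberg adjusted p under 0.05. With the tag left out, 891 of 18110 genes were called in the dark (4.92%), 354 higher (1.95%) and 537 lower (2.97%) in Tnz-1-like lines. In the light 1245 were called (6.87%), 384 higher (2.12%) and 861 lower (4.75%). Under median-of-ratios scaling the higher share of the light calls was 45.3%, against 30.8% as deposited. In both conditions with the same direction 627 were called (3.46%), 194 higher (1.07%) and 433 lower (2.39%) in the Tnz-1-like lines. Without the 6 Ws-2-like lines with a low tag 864 were called in both conditions, among them 616 of the 627. The whole seedling was sampled, so fewer cells of a type and less RNA per cell cannot be told apart. How reads were divided between the parental alleles is not given in the sources used here. Its part in levels near 0 in 1 set was not tested.

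Calls were densest around the tag, and their share fell off on the centromere side but less evenly on the telomere side. Within 2 Mb of the tag 302 of 760 tested genes were called in both conditions (39.7%), against the 3.46% of all genes; 70 were higher and 232 lower in Tnz-1-like lines. On the rest of chromosome 5 the count was 147 of 3440 (4.27%), and on chromosomes 1 to 4 it was 177 of 13750 (1.29%). Without the 6 lines with a low tag the 3 counts were 338, 264 and 260. Within 0.5 Mb it was 47% of 185 genes. On the centromere side the share was 28.6% between 1 and 2 Mb, 7.74% between 2 and 3 Mb and 2.72% between 3 and 4 Mb. On the telomere side it was 41.1% between 1 and 2 Mb, 21.4% between 2 and 3 Mb and 31.4% in the last interval, from 3 to 4.1 Mb. Marker calls had a median agreement with the tag of 94.5% within 0.5 Mb, 85.7% between 1 and 2 Mb, and 73% from 2 to 5 Mb on the centromere side but 82.0% on the telomere side. Beyond 10 Mb on chromosome 5 it was 56.9%.

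**Figure D2:**
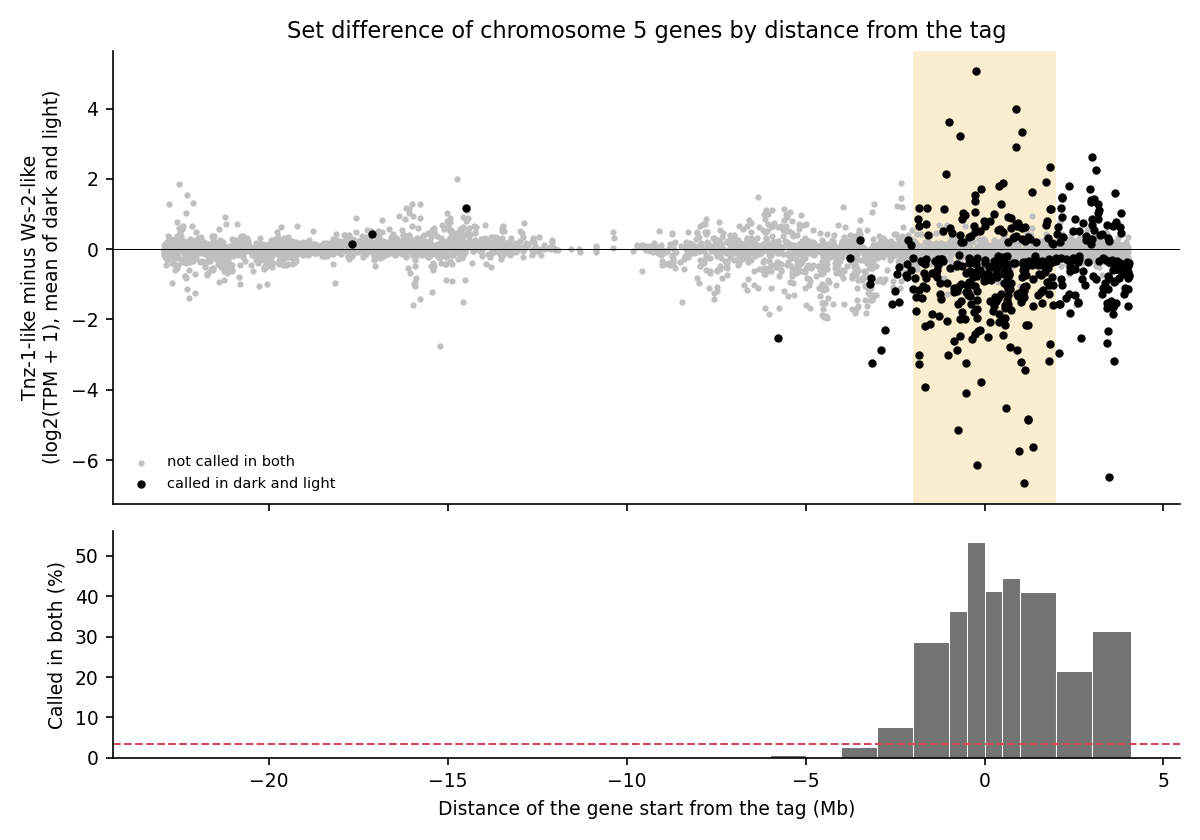
Upper panel, difference between the sets for each tested chromosome 5 gene, Tnz-1-like minus Ws-2-like on the log2(TPM + 1) scale as the mean of dark and light, against the distance of the gene start from the tag in Mb, with genes called in both conditions in black and the 2 Mb window shaded; lower panel, percent of genes called in both conditions by distance, with all genes (3.46%) as a dashed line. The share is highest, at 53.4%, in the 0.5 Mb on the centromere side of the tag.

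Over all tested genes the size of the differences was also larger there. The median absolute difference over all tested genes within 2 Mb, averaged over both conditions, was 0.26 on the log2(TPM + 1) scale, against 0.08 on chromosomes 1 to 4. Among called genes the sizes were closer, with medians of 0.86 within 2 Mb, 0.77 on the rest of chromosome 5 and 0.85 on chromosomes 1 to 4. Of the 302 called genes within 2 Mb 134 differed by at least 1 and 22 by at least 3. On the rest of chromosome 5 these counts were 56 and 3 of 147, and on chromosomes 1 to 4 they were 73 and 1 of 177. The parents, with 1 library per condition and no test, had the same direction at 281 of the 302 called genes within 2 Mb (93.0%), compared with 73.9% of all tested genes in the window. This was not particular to the window. On the rest of chromosome 5 the direction was the same at 138 of 147 called genes (93.9%), against 64.2% of all tested genes there. On chromosomes 1 to 4 it was the same at 173 of 177 (97.7%), against 67.3%. Of 169 genes in the window that differed between the parents by at least 1 in both conditions, 117 were lower in Tnz-1 and 52 higher. The lines called 138 of the 169 (81.7%), each in the direction of the parents. Of the 302 called genes 164 did not differ by that much between the parents.

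Among the genes lower in Tnz-1-like lines, LLG1 (AT5G56170, LORELEI-LIKE-GPI-ANCHORED PROTEIN 1, a co-receptor of the receptor kinase FERONIA), 0.20 Mb from the tag, separated the sets fully. Its lowest, median and highest levels were 0, 0 and 1.20 TPM in the dark in the Tnz-1-like lines and 16.1, 108.4 and 152.1 TPM in the Ws-2-like lines; in the light they were 0, 0 and 0.58 TPM and 12.1, 80.0 and 119.7 TPM. No Tnz-1-like line reached the lowest Ws-2-like line in either condition. The difference was -6.31 (SE 0.195, adjusted p 1.14e-37, limma) in the dark and -5.98 (SE 0.190, adjusted p 3.91e-37) in the light on the log2(TPM + 1) scale. A fitted difference against lines listed at 0 depends on the pseudocount and is no bound on a fold.

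PHOT2 (AT5G58140, chr5:23523825-23533111), the phototropin that with PHOT1 steers phototropism, stomatal opening and chloroplast movement in blue light, lies 0.59 Mb from the tag. In the dark it had 1.51, 1.95 and 159.5 TPM (lowest, median, highest) in the Tnz-1-like lines and 16.4, 93.5 and 125.2 TPM in the Ws-2-like lines. In the light the values were 1.86, 2.51 and 141.8 TPM and 19.4, 137.1 and 166.4 TPM. A single Tnz-1-like line had PHOT2 above the Ws-2-like median and the other 14 lay below the lowest Ws-2-like line, so the sets overlapped through 1 line. The median was 47.9-fold lower in the dark and 54.6-fold lower in the light, with differences of -4.35 (SE 0.266, adjusted p 1.39e-21, limma) and -4.67 (SE 0.261, adjusted p 1.84e-23). In the parents PHOT2 stood at 2.72 and 2.76 TPM in Tnz-1 and at 105.5 and 132.3 TPM in Ws-2, in the dark and the light.

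3 histone genes followed the same pattern. AT5G59690 and AT5G59970 (each annotated as a histone superfamily protein, 1.12 and 1.21 Mb from the tag) are 97.1% identical in coding sequence, so their values are less certain one by one. AT5G59690 had a median listed at 0 in Tnz-1-like lines in both conditions, with 165.0 TPM in the highest line in the dark and 292.4 in the light, and medians of 146.0 and 257.2 TPM in Ws-2-like lines. AT5G59970 had medians of 0 and 0.58 TPM against 40.5 and 70.4 TPM. The differences were -6.42 and -6.90 for AT5G59690 and -4.67 and -5.01 for AT5G59970 (adjusted p at most 2.40e-22, limma). RAT5 (AT5G54640), a histone H2A gene named for resistance to Agrobacterium transformation, had medians of 0 and 0.44 TPM against 56.2 and 79.3 TPM, with differences of -5.12 and -5.19.

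The remaining genes of the 8 largest decreases were ALP (AT5G60360), an aleurain-like cysteine protease of the vacuole, AT5G59250, a major facilitator superfamily transporter, and AT5G59950, an RNA-binding protein. ALP had medians of 3.66 and 4.28 TPM in Tnz-1-like lines and of 481.8 and 596.4 TPM in Ws-2-like lines, 131.6-fold and 139.4-fold lower. In 2 Tnz-1-like lines ALP lay above the Ws-2-like median. AT5G59250 differed by -5.66 in the dark and -5.83 in the light, and AT5G59950 by -4.61 and -5.10.

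HSP81-2 (AT5G56030, chr5:22686473-22689671, also called HSP90.2), a cytosolic HSP90 chaperone, showed the largest increase. Its lowest, median and highest levels in the dark were 105.4, 315.5 and 442.1 TPM in the Tnz-1-like lines and 1.5, 3.36 and 403.9 TPM in the Ws-2-like lines. In the light they were 131.9, 222.3 and 539.9 TPM and 1.34, 3.52 and 326.3 TPM. All 15 Tnz-1-like lines lay above the Ws-2-like median in both conditions. The overlap came from lines among the 9 of 50 Ws-2-like lines that lay on the Tnz-1 side of the parental midpoint for this gene. Not all 9 reached the lowest Tnz-1-like line: lines 28 and 65 lay below it in the dark, and lines 16, 24, 25, 31 and 65 in the light. All 6 Ws-2-like lines with a low tag were among these 9. The medians differed 93.9-fold in the dark and 63.2-fold in the light, with differences of 5.2 (SE 0.571, adjusted p 7.97e-11, limma) and 4.92 (SE 0.511, adjusted p 9.37e-12).

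HSP81-2 stands beside 2 further cytosolic HSP90 genes, so the neighbours can be compared as a family. Hsp81.4 (AT5G56000) was also higher in Tnz-1-like lines, with medians of 13.8 against 3.78 TPM in the dark and 21.5 against 5.88 TPM in the light (differences of 1.53 and 1.56, adjusted p at most 4.10e-12, limma). HSP81-3 (AT5G56010) went the other way, with medians of 49.5 against 86.0 TPM in the dark and 55.5 against 133.2 TPM in the light (differences of -0.91 and -1.20, adjusted p at most 3.07e-07). The 3 coding sequences are 94.2% to 95.5% identical, and how the authors divided reads between such copies is not given in the sources used here. The sum of the 3 genes, which does not depend on how reads were divided among them, had a median of 387.1 TPM in Tnz-1-like and 110.2 TPM in Ws-2-like lines in the dark, and of 295.1 and 175.6 TPM in the light. HSP90.1 (AT5G52640), a heat-inducible member 1.58 Mb from the tag and the only one of the 4 HSP90 genes of lower chromosome 5 that was not called, had differences of 0.0046 and 0.02.

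THI1 (AT5G54770, chr5:22246519-22248332) makes the thiazole ring of thiamine in the chloroplast and was among the most abundant genes with a difference. In the dark it had 1035, 5445 and 6463 TPM (lowest, median, highest) in Tnz-1-like lines and 240.3, 328.5 and 4764 TPM in Ws-2-like lines, and in the light 1419, 5633 and 6108 TPM against 269.4, 369.2 and 4513 TPM. Every Tnz-1-like line lay above the Ws-2-like median, which was 16.6-fold lower in the dark and 15.3-fold lower in the light. The differences were 3.26 (SE 0.344, adjusted p 1.81e-11, limma) and 3.20 (SE 0.337, adjusted p 1.67e-11). As with HSP81-2, all 6 Ws-2-like lines with a low tag lay on the Tnz-1 side of the parental midpoint, among 9 such lines.

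The other genes of the 8 largest increases were HGO (AT5G54080), homogentisate 1,2-dioxygenase of tyrosine breakdown, with differences of 3.85 and 3.4 and a Ws-2-like median listed at 0; AT5G58990, annotated as a ribosomal S34 protein, with 4.01 and 3.97; AT5G59470, a mannose-P-dolichol utilization protein, with 3.33 and 3.37; AT5G61590, an AP2/ERF-type DNA-binding protein, with 2.43 and 2.25; and the uncharacterized AT5G57887 with 1.86 and 1.89. AT5G58990 has a copy with 92.4% identity, AT5G52370. AT5G61590 went from a median of 442.4 TPM in the dark to 70.5 TPM in the light in Tnz-1-like lines and from 32.2 to 6.19 TPM in Ws-2-like lines, and its light change did not pass the test of a difference between the sets.

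**Figure D3:**
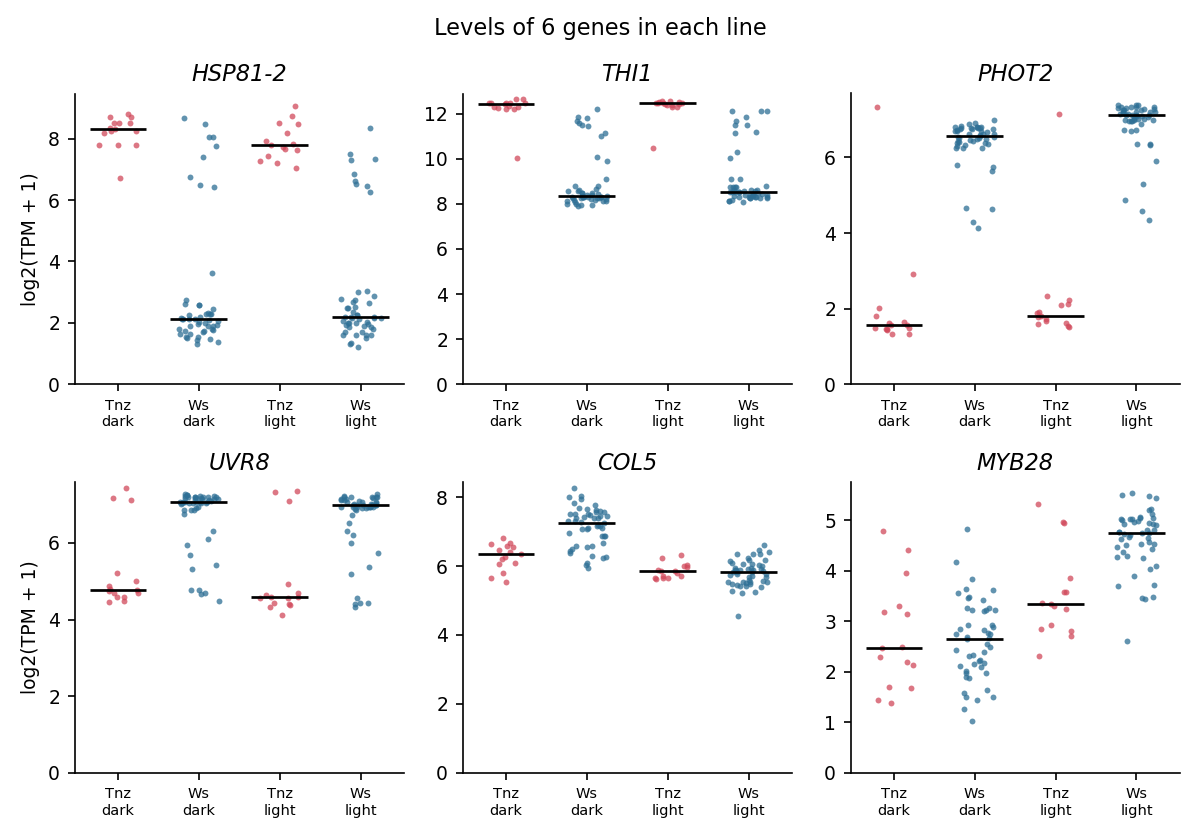
Levels of HSP81-2, THI1, PHOT2, UVR8, COL5 and MYB28 on the log2(TPM + 1) scale in each line, by set (Tnz, Tnz-1-like, n = 15; Ws, Ws-2-like, n = 50) and condition; points are lines, bars are medians. In HSP81-2 and in THI1 9 of 50 Ws-2-like lines lie past the parental midpoint, and COL5 differs in the dark panels only.

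Light, clock and flowering genes of lower chromosome 5 were read as a list of 24, of which 19 were tested. In both conditions 3 were higher (TOE2, MAF2 and MAF3) and 6 lower (PHOT2, UVR8, GNC, PIF7, SRR1 and ZTL) in Tnz-1-like lines, beside 1.07% and 2.39% of all genes. The list was drawn from lower chromosome 5, where 39.7% of all tested genes within 2 Mb of the tag, 21.4% from 2 to 3 Mb and 31.4% from 3 to 4.1 Mb on the telomere side were called, so its count is near that of its surroundings. The list's median difference was -0.16 in the dark and 0.06 in the light, and that of all genes tested 0.02 and -0.01. UVR8 (AT5G63860), the UV-B receptor, 2.62 Mb from the tag, had medians of 26.3 and 22.9 TPM in Tnz-1-like lines and of 132.6 and 125.9 TPM in Ws-2-like lines, 5.05-fold and 5.51-fold lower. The sets overlapped there, with 3 Tnz-1-like lines above the Ws-2-like median in each condition and 8 of 50 Ws-2-like lines on the Tnz-1 side of the parental midpoint.

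GNC (AT5G56860), a GATA factor that promotes chlorophyll synthesis and the closest of these genes to the tag at 0.05 Mb, had medians of 31.4 and 26.5 TPM against 61.6 and 49.1 TPM. All 15 Tnz-1-like lines lay below the Ws-2-like median, a smaller but even shift of -0.91 and -0.84 (adjusted p at most 4.33e-09, limma). ZTL (AT5G57360), the blue-light receptor that targets TOC1 for degradation, differed by -0.43 and -0.27, SRR1 (AT5G59560), a gene of red-light and clock responses, by -0.55 and -0.62, and PIF7 (AT5G61270), a shade-response factor, by -0.58 and -0.74. The clock gene TOC1 (AT5G61380) itself differed by 0.21 in the dark (adjusted p 0.0477, limma) and by 0.16 in the light (adjusted p 0.107), and so was called in the dark and not in the light.

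TOE2 (AT5G60120), a repressor of flowering, was higher by 0.30 and 0.25. MAF2 (AT5G65050, annotated as AGL31) and MAF3 (AT5G65060), FLC-like repressors of flowering, lie 3.05 Mb from the tag and are 93.6% identical, so they are less certain one by one. MAF3 had medians of 11.7 and 11 TPM against 1.91 and 2.60 TPM, with differences of 1.55 and 1.28, and MAF2 differed by 0.56 and 0.54.

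The rest of chromosome 5 was described by the same rule of size as the window around the tag, a choice made after the values were seen. The largest decrease was in the uncharacterized AT5G66052, 3.48 Mb from the tag, with medians listed at 0 in Tnz-1-like lines and of 871.0 TPM in the dark and 440.9 TPM in the light in Ws-2-like lines, and 13 of 15 Tnz-1-like lines below the Ws-2-like median. On the Tnz-1 side of its parental midpoint lay 13 of 15 Tnz-1-like and 6 of 50 Ws-2-like lines. CB5-D (AT5G48810), a cytochrome b5, 3.15 Mb away on the centromere side, differed by -3.20 and -3.26, but only 9 of 15 Tnz-1-like lines lay on the Tnz-1 side of its parental midpoint, beside 7 of 50 Ws-2-like lines. Its call was lost without 1 line of each near-identical pair, with line-number range as a term and with the genome-wide share as a covariate. ERS (AT5G64050), the glutamate tRNA synthetase of the organelles, differed by -2.46 and -2.61. Of the increases, CESA6 (AT5G64740), a cellulose synthase of the primary wall, had medians of 179.0 and 107.0 TPM against 28.1 and 16.3 TPM, 6.37-fold and 6.55-fold higher. For CESA6, 12 of 15 Tnz-1-like and 11 of 50 Ws-2-like lines lay on the Tnz-1 side of the parental midpoint.

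A further comparison asked whether the other eS30 genes differed between the sets. AT4G29390 had a lowest, median and highest level of 229.1, 271.6 and 371.2 TPM in the dark in Tnz-1-like lines and of 197.1, 277.8 and 359.7 TPM in Ws-2-like lines. In the light the values were 230.4, 318.2 and 445.4 TPM and 223.7, 331.3 and 384.6 TPM. The sets overlapped throughout, with differences of -0.02 (SE 0.0579, adjusted p 0.92, limma) and -0.03 (SE 0.0632, adjusted p 0.826). AT2G19750 varied between the lines within both sets, from 0.24 to 105.2 TPM in Tnz-1-like and from 0 to 145.5 TPM in Ws-2-like lines in the dark, and differed by -0.45 (SE 0.735, adjusted p 0.805) and -0.55 (SE 0.688, adjusted p 0.713). Like the tag it was low in Tnz-1 (2.94 and 1.37 TPM) and high in Ws-2 (102.7 and 127.2 TPM), on another chromosome.

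The sum over the 3 eS30 genes, which holds the tag and is therefore given with no test, had a median of 334.2 TPM in Tnz-1-like and 602.6 TPM in Ws-2-like lines in the dark, and of 378.7 and 733.3 TPM in the light. In the parents it was 492.7 and 432.2 TPM in Tnz-1 and 662.3 and 907.1 TPM in Ws-2. Of 13 genes found by their annotation as cytosolic small-subunit ribosomal proteins, the other eS30 genes included and the tag left out, 10 were tested and 0 were called in the dark or in the light (limma), where 4.92% and 6.87% of all genes were called. At an unadjusted p under 0.05 there were 4 and 2 of the 10, against 19.3% and 20.9% of all genes, and the median differences were -0.01 and -0.02. That list misses genes annotated in other words, such as AT1G34030 of the ribosomal S13/S18 family on chromosome 1, which was called lower in both conditions (-2.65 and -2.51) and was not called with the local covariate described below.

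On chromosomes 1 to 4, 150 of the 177 called genes lay on chromosome 1, 14 on chromosome 2, 12 on chromosome 3 and 1 on chromosome 4. The largest increases were in OHP2 (AT1G34000), a one-helix protein of photosystem assembly, MOS2 (AT1G33520), TIM13 (AT1G61570), an import chaperone of mitochondria, TLP7 (AT1G53320), EMB3003 (AT1G34430), CDS1 (AT1G62430), AT1G62770 and AT1G44770, all on chromosome 1. OHP2 had 0.63, 117.1 and 201.4 TPM (lowest, median, highest) in the dark in Tnz-1-like lines and 0, 1.63 and 152.4 TPM in Ws-2-like lines. The sets overlapped over nearly the whole range, and 11 of 15 and 16 of 50 lines lay on the Tnz-1 side of the parental midpoint. The largest decreases were in AT3G62530 on chromosome 3 and, on chromosome 1, TPX1 (AT1G65980), a peroxiredoxin, AT1G34030, AT1G62480, AT1G62510, the kinase MPK2 (AT1G59580), the lectin AT1G33790 and the DNA-damage histone GAMMA-H2AX (AT1G54690). TPX1 had medians of 62.3 and 64.3 TPM in Tnz-1-like lines and 315.9 and 319.2 TPM in Ws-2-like lines, and the sets ran from 0 to 366.5 and from 0 to 604.5 TPM in the dark. Without the 6 lines with a low tag the calls of AT3G62530 and TPX1 were lost, at -2.90 and -2.84.

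Where these genes lay was compared with how the markers around them travelled with the tag. In 83 windows of 1 Mb on chromosomes 1 to 4, the correlation (phi) of marker calls with the tag call had a median per window from -0.21 to 0.48. The 17 windows with a median phi of at least 0.3 held 152 called genes of 2228 tested (6.82%), and the other windows 24 of 11197 (0.214%). The marker calls come from levels in these same libraries, and the markers are themselves among the tested genes. The phi and the share called are therefore not independent measures. When the share of Tnz-1-like calls within 1 Mb of each gene was added to the fit as a covariate, a choice made after seeing the data, the count on chromosomes 1 to 4 went from 177 to 28, of which 14 were among the 177. Genes within 5 Mb of the tag were fitted without the covariate, and the count within 2 Mb was 292 in that fit.

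**Figure D4:**
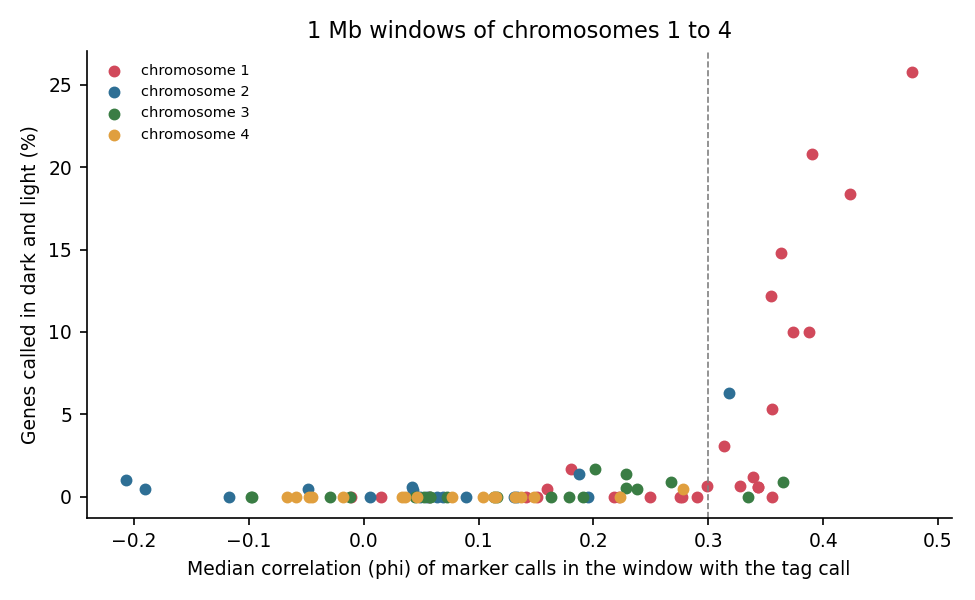
Percent of tested genes called in both conditions in each 1 Mb window of chromosomes 1 to 4, against the median correlation (phi) of the marker calls of the window with the tag call; colours are chromosomes and the dashed line is at 0.3. The highest window, on chromosome 1, has 25.8% called at a phi of 0.48. Marker genes are counted on both axes, so the axes are not independent.

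Of the far genes named for their size, AT3G62530 alone was among the 14 called with and without the local covariate. AT3G62530, an ARM repeat protein, had medians of 0.38 and 3.14 TPM in Tnz-1-like lines and of 254.2 and 301.4 TPM in Ws-2-like lines. The sets overlapped fully, from 0 to 300.2 TPM and from 0 to 392.4 TPM in the dark, with 8 of 15 and 8 of 50 lines on the Tnz-1 side of the parental midpoint. Its mean difference was -3.04 without and -1.37 with the local covariate (adjusted p 0.0293 in the dark and 0.0218 in the light with it, limma). The other 13 were AT1G44790, AT1G44820, AT1G44920, AT2G03470, GRV2, CYP710A2, JAL22, TK1a, NSP1, NSP4, JR1, AT3G53970 and FAD6. NSP1 (AT3G16400) and NSP4 (AT3G16410), nitrile specifier proteins that steer the breakdown products of glucosinolates, were higher by 0.48 and 0.42 and by 0.45 and 0.41 in the dark and the light. NSP1 had medians of 635.1 and 844.8 TPM against 435.9 and 559.2 TPM. They are 95% identical in coding sequence, so their values are less certain one by one. The jacalin lectins JAL22 (AT2G39310) and JR1 (AT3G16470) were higher by 0.61 and 0.57 and by 0.44 and 0.36, and FAD6 (AT4G30950), the plastid omega-6 desaturase, was lower, with differences of -0.26 and -0.28.

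Lists not drawn from lower chromosome 5 gave 0 calls in either condition in the main fit with limma, beside 4.92% and 6.87% of all genes. These were 15 tested clock genes elsewhere in the genome, 10 dark-induced and sugar-starvation genes and 8 seed storage genes, of which SESA5 lies 0.70 Mb from the tag. Their median differences were -0.03 and 0.03, -0.19 and 0.10, and 0.40 and 0.38, in the dark and the light. At an unadjusted p under 0.05 the counts were 2 and 0, 1 and 4, and 0 and 0, where 19.3% of all genes passed in the dark and 20.9% in the light. The 0 calls depended on the model. With the local covariate the clock gene GI passed in the dark (adjusted p 0.0146, limma) and not in the light (0.0807). The dark-induced AT3G15450 passed in the light (adjusted p 0.0358) and not in the dark (0.952).

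The second comparison asked whether the change from dark to light differed between the sets. The difference between a line's own 2 libraries was tested, and 54 of 18110 genes were called (0.298%), 5 with a higher (0.0276%) and 49 with a lower (0.271%) light change in Tnz-1-like lines. Under median-of-ratios scaling 11 of 45 were higher, 24.4% against 9.26% as deposited. Within 2 Mb of the tag 30 of 760 were called (3.95%), on the rest of chromosome 5 there were 9 and on chromosomes 1 to 4 15. In the fit without the line as a block 3 were called, namely COL5, AT5G57640 and AT5G59613, all within 2 Mb. Leaving out 1 line of each near-identical pair left 33.

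COL5 (AT5G57660, chr5:23355337-23356989), a CONSTANS-like B-box protein, had the largest difference toward a higher light change among genes at a mean of at least 5 TPM. In the dark it had 45.3, 80.3 and 111.1 TPM (lowest, median, highest) in Tnz-1-like lines and 61.1, 152.4 and 304.6 TPM in Ws-2-like lines, and in the light 48.7, 56.8 and 79.2 TPM and 22.4, 56.1 and 97.3 TPM. All 15 Tnz-1-like lines lay below the Ws-2-like median in the dark, while in the light 7 lay below and 8 above it. The light change was -0.41 ± 0.36 (SD, n = 15) in Tnz-1-like and -1.34 ± 0.67 (SD, n = 50) in Ws-2-like lines, a difference of 0.93 (SE 0.179, adjusted p 0.00287, limma). COL5 was lower in light than in dark in 49 of 50 Ws-2-like and in 12 of 15 Tnz-1-like lines. With the genome-wide share of Tnz-1-like calls as a covariate the difference was 0.70 and the call was lost.

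MYB28 (AT5G61420, chr5:24689069-24691187), the main activator of the genes for aliphatic glucosinolates, the methionine-derived defence compounds of this family, lies 1.75 Mb from the tag. It had 1.59, 4.52 and 26.6 TPM in the dark in Tnz-1-like lines and 1.02, 5.29 and 27.3 TPM in Ws-2-like lines. In the light the values were 3.93, 9.17 and 38.7 TPM and 5.13, 25.9 and 45.1 TPM. The sets thus overlapped in both conditions, and their medians were close in the dark and 2.82-fold apart in the light. The level in the light was called lower in Tnz-1-like lines, with a difference of -1.08 (SE 0.195, adjusted p 5.02e-05, limma). The level in the dark was not called, with a difference of 0.08 (adjusted p 0.907). MYB28 was higher in the light in 50 of 50 Ws-2-like lines, by 1.99 ± 0.90 (SD), and in 13 of 15 Tnz-1-like lines, by 0.83 ± 0.82 (SD), a difference of -1.16 (SE 0.256, adjusted p 0.0183, limma). The call was lost with the genome-wide share as a covariate, where the difference was -0.76, with the calls at 5 other loci as terms and without the block.

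The other genes named by size were AT3G28220, a TRAF-like protein on chromosome 3, with a light change lower by -1.89 (SE 0.424, adjusted p 0.0218, limma), AT5G05600, a 2-oxoglutarate-dependent oxygenase 21.3 Mb from the tag, by -1.06, and within 2 Mb the uncharacterized AT5G54585 by -1.06 and AT5G55180, a family 17 glycosyl hydrolase, by -0.99. AT5G54585 had dark and light medians of 0.19 and 0.51 TPM in Tnz-1-like lines and of 8.27 and 25.3 TPM in Ws-2-like lines. At the former levels the log2(TPM + 1) scale understates a change. AT3G28220 went down in the light in 15 of 15 Tnz-1-like lines and up in 21 of 50 Ws-2-like lines. Higher light changes were found in AT5G65380, a MATE transporter, by 0.74, AT5G57100, a nucleotide sugar transporter, by 0.45, and AT5G56220, a P-loop protein, by 0.41. PHOT2 was also called, with a light change of 0.17 ± 0.39 (SD, n = 15) in Tnz-1-like and 0.49 ± 0.20 (SD, n = 50) in Ws-2-like lines (adjusted p 0.0307), at levels near 2 TPM in the former, where the log2(TPM + 1) scale understates a change.

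No clock gene outside lower chromosome 5 and no dark-induced gene was called for its light change (limma), beside 0.298% of all genes. At an unadjusted p under 0.05 there were 0 of 15 and 3 of 10, beside 9.94% of all genes. The 10 dark-induced and sugar-starvation genes had a median difference in light change of 0.50, against -0.03 for all genes.

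The last comparison was of the size of the whole light response. For each line the slope of its log2 changes on the mean of the other lines was taken over 914 light-responsive genes further than 5 Mb from the tag, so that 1 means a response of average size. It was 0.932 ± 0.121 (SD, n = 15) in Tnz-1-like and 1.02 ± 0.119 (SD, n = 50) in Ws-2-like lines, a difference of -0.0858 (two-sided permutation test, 100000 resamples, p = 0.0203). The ranges overlapped, from 0.602 to 1.07 and from 0.763 to 1.24. The difference did not pass the test with the range of line numbers as a term (-0.0440, permutation p = 0.101) or with the genome-wide share of Tnz-1-like calls as a covariate (-0.0213, permutation p = 0.518). Within the 4 ranges of line numbers it was -0.122, -0.0470, -0.0736 and 0.00969, with 1, 4, 5 and 5 Tnz-1-like lines.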

How the data were processed

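Poly(A) RNA of whole seedlings was made into directional NEBNext libraries, per the labels' protocols. The authors deposited TPM values for 28775 genes in 134 libraries; the submitters' processing notes name cutadapt 3.4, Salmon 1.6.0, GATK and the build TAIR10, without role or order. How reads were divided between parental alleles or between near-identical copies is not given in the sources used here. Each library sums to between 999999 and 1000001 TPM, so read depth is unknown and no counting interval is given. A gene listed at 0 is reported as such.

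Positions, names and coding sequences came from RefSeq TAIR10.1, which held 28009 of the 28775 identifiers (97.3%); distances are between lowest gene coordinates. Copies were sought with BLAST+ 2.17.0 over at least 50% of the coding sequence. Genes with a mean of at least 1 TPM over 130 RIL libraries (18111) were tested with limma 3.58.1 (lmFit, eBayes with trend) in R 4.3.3 on log2(TPM + 1), pseudocount 1, which understates changes of low genes. Differences are Tnz-1-like minus Ws-2-like. Slopes were tested with SciPy 1.17.1 by permutation.

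Named genes were the 8 largest mean differences in each direction among genes called in both conditions within 2 Mb of the tag, and again on chromosomes 1 to 4, and the 5 largest light changes in each direction (4 higher ones passed), each at a mean of at least 5 TPM, plus called genes of the lists. The members, the lists and the rules were chosen with earlier results of these data known. P-values measure the spread between lines.

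Libraries are paired across conditions by the line number in their labels; their deviations from the group means were correlated at 0.492 to 0.886 (median 0.772), over 0.1 in all 65 lines. In simulated data for 18111 genes with 100 genes changed by 0.5 and 100 by 1 on the log2 scale, the dark fit recovered 64 and 91 with 8 false calls, the light fit 65 and 84 with 4, and the light change 67 and 96 with 14. Each gene and line was drawn independently from a normal distribution, without the linked genes and near-identical lines of the real data. These counts therefore need not hold for the real fits. Alternatives covered the pseudocount, the low-value filter, median-of-ratios scaling, an effect threshold, near-identical lines, line-number range, genome-wide and local share of Tnz-1-like calls, 5 other tags, sets by neighbouring markers, leaving out the 2 lines near the parental midpoint or the 6 Ws-2-like lines with a low tag, the window and the block.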

Additional observations from a re-analysis of the deposited data

Results flagged for a closer look

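Of the 54 genes called for their light change, the 9 named for size at a mean of at least 5 TPM are given here. Their light change differed between the Tnz-1-like and the Ws-2-like lines by a test of the difference itself (limma on per-line light minus dark, adjusted over all genes). On the log2(TPM + 1) scale the light change was higher in Tnz-1-like lines for COL5 (AT5G57660) by 0.93, AT5G65380 by 0.74, AT5G57100 by 0.45 and AT5G56220 by 0.41. It was lower for AT3G28220, with a difference of -1.89, MYB28 (AT5G61420) with -1.16, AT5G05600 with -1.06, AT5G54585 with -1.06 and AT5G55180 with -0.99. The levels of AT5G54585 in Tnz-1-like lines were near the floor, with medians of 0.19 TPM in the dark and 0.51 TPM in the light. For COL5, AT5G65380, AT5G57100 and AT5G56220 the level in Tnz-1-like lines was lower in the dark, with dark differences of -0.87, -0.87, -0.74 and -2.53. Without the line as a block, COL5 alone of these 9 was called.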

How the results depend on the processing

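With an added absolute difference of at least 1, the counts were 270 in the dark, 336 in the light, 232 in both, 6 for the light change, 117 within 2 Mb, 50 on the rest of chromosome 5 and 65 on chromosomes 1 to 4, with 99.1% of the near genes in the parents' direction. With sets by neighbouring markers they were 1380 in the dark, 1920 in the light, 997 in both and 395 on the rest of chromosome 5, where leaving out the 6 Ws-2-like lines with a low tag, added after seeing the data, gave 264. The local share, added after seeing the data, gave 790 in the light and 28 on chromosomes 1 to 4. The light change had 33 calls without 1 line of each near-identical pair, 35 with line-number range, 30 with the genome-wide share and 35 with the 5 other tags. Near the tag, 173 were called within 1 Mb, and the parents' direction was shared by 95.4% without near-identical lines and 86.9% with the genome-wide share. The slope difference was -0.0440 with line-number range and -0.0213 with the genome-wide share. The eS30 copies were called under no alternative; their mean difference changed sign for AT2G19750 with the genome-wide share (0.42) and the local share (0.059) and for AT4G29390 with the other tags (0.0063). In these cases the cause was not tested. Of 627 genes called in both conditions, 432 to 616 remained called under the 11 alternatives other than that threshold. Median-of-ratios scaling moved no median of all genes by 0.1.

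The line numbers pair the dark and light libraries. With no replicate block the light change had 3 calls in place of 54. The level fits hold 1 library per line, so the block bears on the light change alone. The depth of TPM values is unknown, which limits what a level listed at 0 can say.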

Other observations

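After MYB28 had been seen among the light changes, 19 genes of aliphatic glucosinolate synthesis were read as a list. They include MYB28 and its homologues, chain elongation enzymes such as MAM1 and BCAT4, and the core enzymes CYP79F1 and CYP83A1. All 15 tested genes had a lower light change in Tnz-1-like lines, from -0.06 to -1.26 on the log2(TPM + 1) scale with a median of -0.65, against -0.03 for all genes. The light change of MYB28 was called by limma, and the lowest adjusted p among the other 14 was 0.134. In the light 13 of the 15 were at a lower level and in the dark 2 of the 15, with median differences of -0.32 and 0.42. By limma 1 of the 15, MYB28, was called for its level in the light and 0 in the dark. The sets are unbalanced over line numbers, with 1 Tnz-1-like and 16 Ws-2-like lines in the range 1 to 19. In Ws-2-like lines the slope of the whole light response averaged 1.12 in that range and 0.883 in lines 40 to 57. The part of line number in the differences of this list as a whole was not tested. The list was chosen after its leading gene was seen, and its genes vary together, so the counts carry no test; 11 of the 15 had an unadjusted p under 0.05 for the light change, beside 9.94% of all genes.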
